A study of Caenorhabditis elegans with 79 samples.

Results

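Messenger RNA of hrde-1 late animals was set directly against that of morc-1 late animals, with no wild-type libraries in the test. The comparison rests on 4 of the 79 sequencing libraries of this Caenorhabditis elegans series, chosen by their labels: 2 hrde-1 late and 2 morc-1 late libraries of polyadenylated RNA. The hrde-1 animals carry the tm1200 allele and the morc-1 animals the tm6048 allele. Both strains were kept at 20 °C, moved to 25 °C and collected after 4 generations there, feeding on OP50 bacteria. By the labels RNA came from whole young adults, and by the extraction protocol from gravid hermaphrodites. The 12 mRNA libraries of the series also hold hrde-1 early and morc-1 early animals (generation 1 at 25 °C) and wild type (WT), again with 2 libraries each. The labels do not say that libraries of a group came from separate cultures, so each p-value reflects the spread among the libraries at hand, which may be technical. In RNA of whole animals, fewer cells of a type and less RNA per cell cannot be told apart.

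HRDE-1 is a germline nuclear Argonaute. It binds small interfering RNAs that RNA-dependent RNA polymerases make from a target transcript, and it recruits the nuclear RNAi machinery that represses that locus and deposits H3K9 methylation across generations. MORC-1 is a GHKL-type ATPase that compacts chromatin and is placed downstream of nuclear RNAi in the worm germline. Strains lacking either protein lose fertility over generations at raised temperature. The comparison addresses which transcripts accumulate without the Argonaute beyond what accumulates without MORC-1.

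Values were FPKM, fragments scaled to gene length and to the library's total, and differences are hrde-1 minus morc-1 in log2(FPKM + 1), a scale that understates the change of low genes. The sum of FPKM over genes was 0.987 M and 1.40 M in hrde-1 late, against 0.963 M and 0.981 M in morc-1 late, and read depth is unknown. The hrde-1 late replicates were the least alike, with r = 0.901 across genes, against 0.951 in morc-1 late. Markers of oocytes and eggshell, muscle and intestine were present in every library, with summed oocyte and eggshell genes at 10954 and 15697 FPKM in hrde-1 late, against 12023 and 13266 FPKM in morc-1 late. The median difference over all 7356 genes tested was -0.18.

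Far more genes were higher in hrde-1 late than were lower. With limma and Benjamini-Hochberg adjusted p under 0.05, 160 genes rose in hrde-1 late relative to morc-1 late (2.18% of the 7356 tested) and 15 fell (0.204%). Differences of the 160 ran from 1.10 to 7.55. The libraries did not overlap between strains for any of the 175 calls, against 15.4% of all tested genes with both hrde-1 late libraries above and 18.5% with both below. The number depends on single libraries, since 238 genes were called higher without hrde-1 late replicate 1, 57 without replicate 2, 41 without morc-1 late replicate 1 and 31 without replicate 2. The lower calls numbered 100 without hrde-1 late replicate 1, 4 without its replicate 2, and 3 without either morc-1 late replicate. With the level filter and the spread both taken from the 4 late libraries alone (7265 genes tested), 59 genes were higher and 9 lower.

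The genes that rose were split into 2 sets by whether they were also called higher in generation 1. Of the 160, 32 were also called higher in hrde-1 early than in morc-1 early. That is 20% of the late calls and 94.1% of the 34 genes called higher early (0.462% of genes tested). With the filter and spread of each stage's own libraries alone, 18 genes were called higher early and 14 were called higher at both times. The median difference of these 32 genes was 3.66 late and 4.49 early. The other 128 had a median of 2.25 late and 0.21 early, beside -0.18 and 0.05 over all genes tested. Of these 128, 10 had an early difference of at least 1, so the lack of an early call does not mean no early difference. In the test of a change in the difference from early to late, limma called 0 genes higher and 1 lower (0.0136% of genes tested), the yolk gene vit-5. None of the 128 passed it (smallest adjusted p = 0.0518), although 121 had an unadjusted p under 0.05 for a larger difference late, a count that picking genes by their late difference favours. That smallest value belonged to fbxa-33, listed at 0 in morc-1 late and in every early mutant library, so it rests on values of 0 and on the pseudocount. The early and late comparisons have no libraries in common, but they share the spread estimate of 1 fit and the level filter. That filter averaged the mutant libraries of both stages, so a gene low in morc-1 passed more readily if hrde-1 was high at both times. With a mean of at least 1 FPKM, 540 genes were called higher late, 55 early and 46 at both times.

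**Figure D1:**
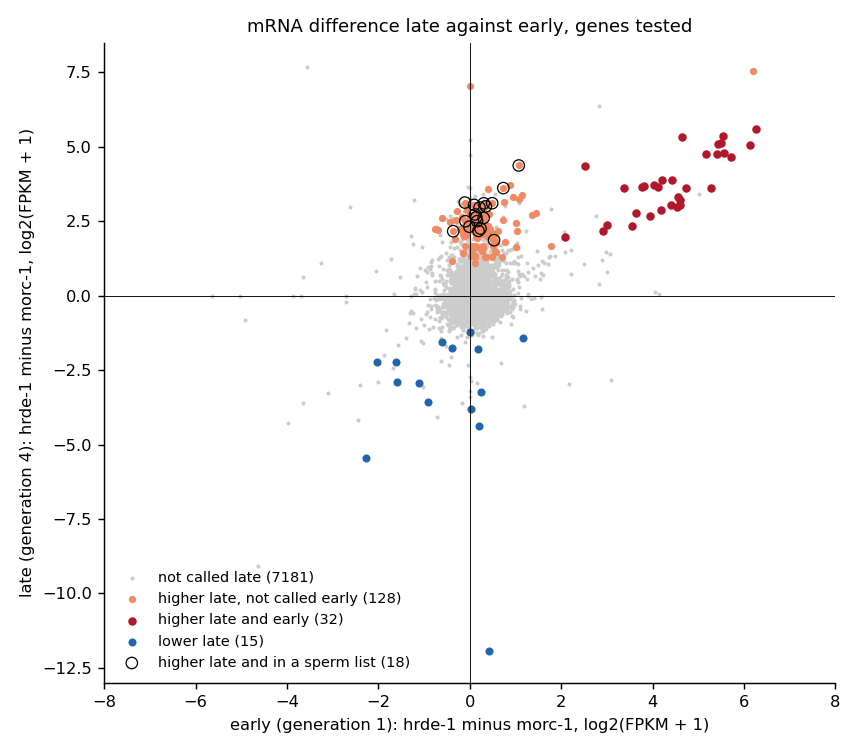
Each point is 1 of the 7356 genes tested, with the early difference (hrde-1 minus morc-1, log2(FPKM + 1)) on the horizontal axis and the late difference on the vertical axis. The 32 genes higher at both times lie at the upper right, while most of the 128 others, 18 of them in the sperm lists, stand above 0 late and near 0 early.

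Most genes higher at both times were near 0 FPKM in morc-1 late and in WT late. The level filter asked for a mean of at least 10 FPKM over the 8 mutant libraries. Genes this low in morc-1 at both stages, such as Y43F4A.3, fbxb-14 and F47B7.6, were therefore tested only because of their hrde-1 levels. F41G4.7 had 57.6 and 137 FPKM in hrde-1 late, against 1.25 and 1.16 FPKM in morc-1 late (difference 5.35, SE 0.43, limma adjusted p = 0.00165). F47B7.6, annotated as a pseudogene, had 50.2 and 152 FPKM in hrde-1 late, against 1.203 and 2.08 FPKM in morc-1 late (5.09, SE 0.51, adjusted p = 0.00379). Every hrde-1 late library lay far above every morc-1 late library for both. The lowest adjusted p in the set, 0.00126 by limma, belonged to R09E10.2, with 94.9 and 93.9 FPKM in hrde-1 late, against 4.12 and 3.26 FPKM in morc-1 late. The F-box gene fbxb-14, of a family of substrate adaptors for ubiquitin ligases, had 89.2 and 46.9 FPKM in hrde-1 late, against 0.863 and 0.337 FPKM in morc-1 late (5.38, SE 0.43, adjusted p = 0.00165).

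Other members of this set had the same form. Y43F4A.3 had 54.6 and 74.1 FPKM in hrde-1 late, against 0 and 0.785 FPKM in morc-1 late, with a difference of 5.597. ZC15.3 had 24.9 and 46.2 FPKM in hrde-1 late, against 0.469 and 0.0999 FPKM in morc-1 late, with a difference of 4.78. R09H3.3 had 42.3 and 27.3 FPKM in hrde-1 late, against 0.401 and 0.391 FPKM in morc-1 late, with a difference of 4.65. In each the hrde-1 late libraries were clear of the morc-1 late ones, and the same holds for Y48G1BM.7 (5.14), Y38H6C.7 (5.06), F16B4.6 (4.75), F37D6.3 (4.75) and Y76B12C.8 (3.90). The neuropeptide receptor gene pdfr-1, a G protein-coupled receptor for PDF peptides that was named after its values were seen, had 28.9 and 11.5 FPKM in hrde-1 late, against 1.16 and 1.04 FPKM in morc-1 late (3.20).

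Over the 32 genes the median level was 46.8 FPKM in hrde-1 late, 2.02 FPKM in morc-1 late and 0.892 FPKM in WT late. Both morc-1 late libraries were above both WT late libraries for 18 of the 32, against 35.9% of all genes tested and 13 of the 128 genes called late only. Both hrde-1 late libraries were above WT late for all 32, against 16.8% of all genes tested and 125 of the 128 genes called late only. These positions use libraries that chose the genes and are a description. By annotation the 32 comprised 22 protein-coding genes, 7 pseudogenes, 2 long non-coding RNAs and 1 other non-coding RNA, against 7172 protein-coding genes and 111 pseudogenes among those tested. The 111 are only the pseudogenes that passed the level filter, which high hrde-1 levels alone could meet, so this share is a description as well. Of these 32, 29 stayed called without hrde-1 late replicate 1, 25 without replicate 2, 23 without morc-1 late replicate 1, 21 without replicate 2, and 20 with the filter and spread of the late libraries alone.

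**Figure D2:**
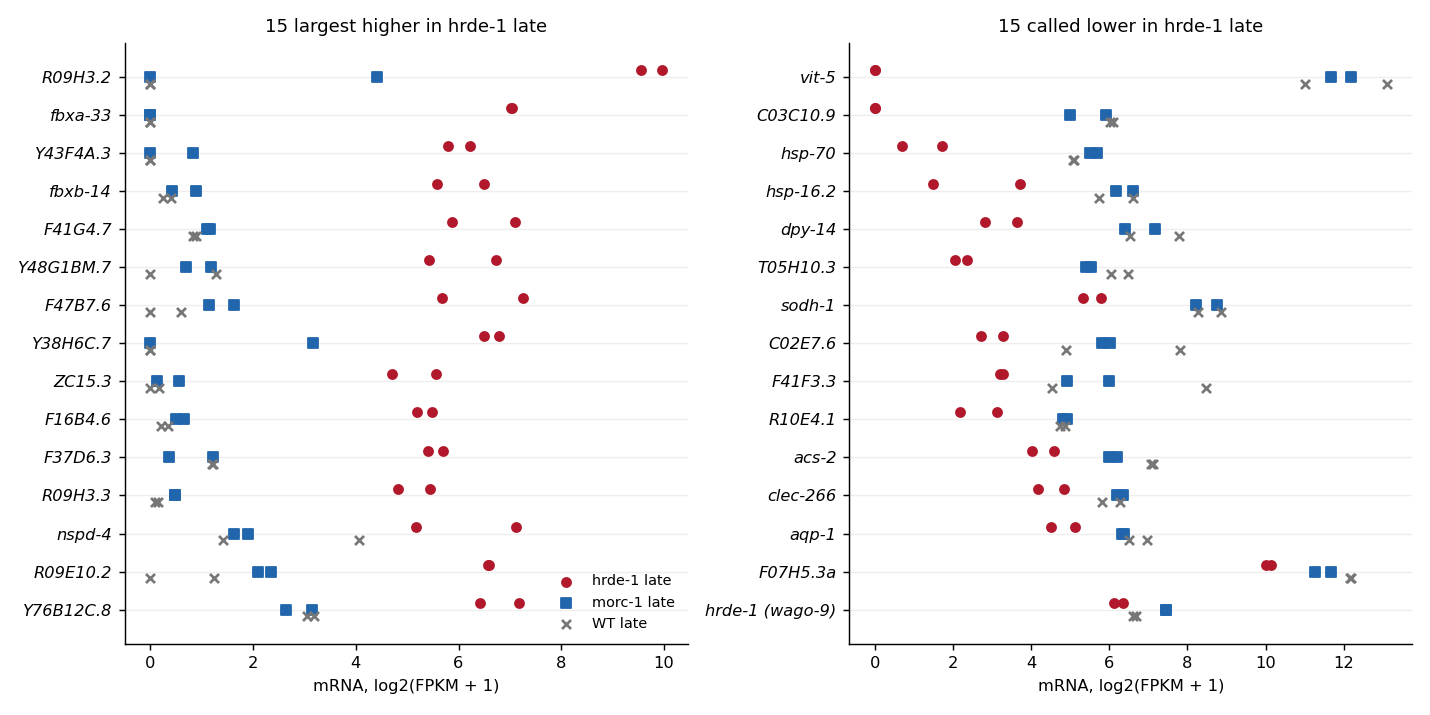
Levels as log2(FPKM + 1) in each late library of the 15 largest higher and the 15 lower calls, with hrde-1 late as red circles, morc-1 late as blue squares and WT late as grey crosses. In the left panel both WT late libraries lie below both hrde-1 late libraries, with WT late replicate 2 of nspd-4 above morc-1 late and morc-1 late replicate 2 of R09H3.2 above WT late; values at 0 on the axis are listed at 0 FPKM.

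Nearly all genes higher at both times had small RNA that was lower in hrde-1 late. Small RNA of the same strains and stage was measured in 2 hrde-1 late and 3 morc-1 late libraries, as normalised reads per feature. Generation 5 supplied 1 of the morc-1 late libraries and also WT late replicate 3, while both hrde-1 late libraries came from generation 4. Of the 32 genes, 29 are small RNA features (90.6%), against 8.70% of the genes not called. How the 2434 features of the small RNA table were chosen is not stated. Small RNA was lower in hrde-1 late than in morc-1 late for 28 of the 29 and higher for 1, by limma with adjusted p under 0.05. Over all 2261 small RNA features tested, 41.4% were lower and 17.1% higher, and of 625 features whose mRNA was not called 47.7% were lower. The median small RNA difference of the 29 was -2.75, against -0.66 over all features. With other scalings, which bring the median of all features to 0.07 (quantile), -0.25 (edgeR) and -0.11 (DESeq2), 27, 27 and 26 of the 29 stayed lower.

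At F47B7.6 small RNA stood at 37.8 and 40.6 normalised reads in hrde-1 late, against 5434, 6086 and 4981 in morc-1 late (difference -7.09, limma adjusted p = 1.64e-08). At R09H3.3 it stood at 44.6 and 57.4 in hrde-1 late, against 5024, 6684 and 4942 in morc-1 late (-6.74, adjusted p = 2.36e-08). At F41G4.7 it stood at 314 and 315 in hrde-1 late, against 13492, 15346 and 12408 in morc-1 late (-5.44, adjusted p = 1.80e-08). At all 3 genes morc-1 late lay above WT late as well, where F41G4.7 had 4332, 4114 and 3005 normalised reads. Across the 29 features all hrde-1 late libraries lay below all WT late libraries for 28, while all morc-1 late libraries lay above WT late for 17 and below for 5. Over all 2261 features hrde-1 late lay below WT late for 61.6%, and morc-1 late lay above WT late for 22.1% and below for 33.2%. The feature that went the other way was pdfr-1, with 53.0 and 57.4 normalised reads in hrde-1 late, against 26.7, 29.6 and 30.1 in morc-1 late (0.91, limma adjusted p = 0.00724). In WT late pdfr-1 had 100, 115 and 145 normalised reads, above both mutants.

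**Figure D3:**
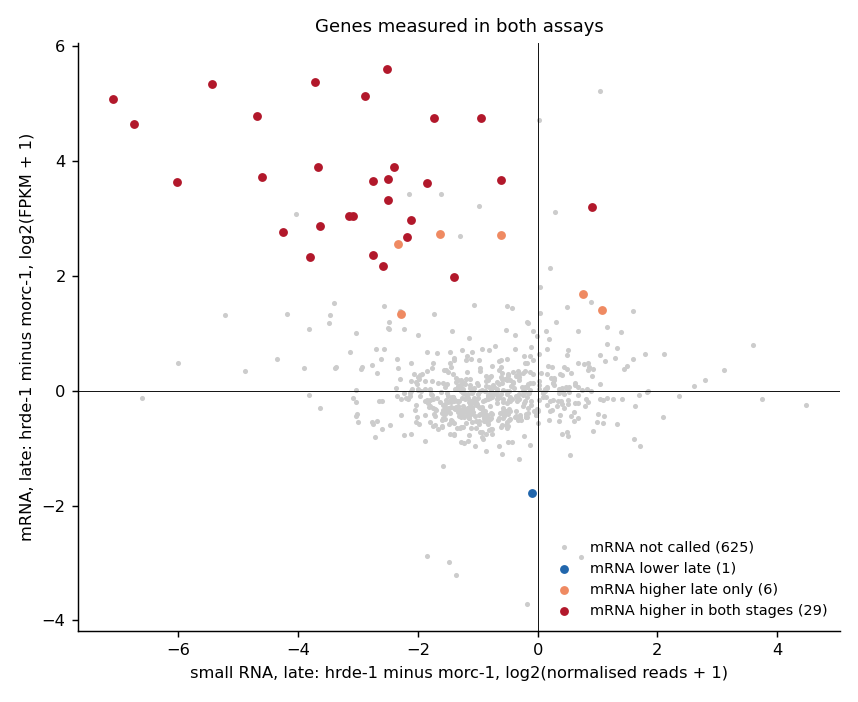
The 661 genes measured in both assays, with the late small RNA difference (hrde-1 minus morc-1, log2(normalised reads + 1)) on the horizontal axis and the late mRNA difference on the vertical axis. Of the 29 red points, genes whose mRNA was higher at both times, 28 lie left of 0; the genes whose mRNA was not called are grey.

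Of the 128 genes called higher late only, 6 were small RNA features (4.69%), of which 3 were lower, 2 higher and 1 not called. Named after its values were seen, mif-2, of the macrophage migration inhibitory factor family, had more small RNA in hrde-1 late (2241 and 2126 normalised reads, against 1026, 929 and 1154 in morc-1 late) together with more mRNA (1.41).

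Of 7 known targets of germline nuclear RNAi listed, 5 passed the level filter, and 2 of the 5 rose in hrde-1 late, against 2.18% of all genes tested. The median of the 5 was 1.204 late and 2.90 early. As bath-45 was under 10 FPKM in every morc-1 library and passed the filter only through hrde-1, this median is a description. F15D4.5 had 143 and 129 FPKM in hrde-1 late, against 10.0 and 8.68 FPKM in morc-1 late (3.73, SE 0.38, limma adjusted p = 0.00379). C38D9.2 had 73.6 and 57.8 FPKM in hrde-1 late, against 15.9 and 11.8 FPKM in morc-1 late (2.17, SE 0.31, adjusted p = 0.0145). The morc-1 late values of C38D9.2 lay well above its 0.872 and 0.0594 FPKM in WT late. Small RNA of C38D9.2 was 628 and 640 normalised reads in hrde-1 late, against 3443, 4711 and 3401 in morc-1 late. The gene bath-45, coding for a BTB and MATH domain protein, had 25.95 and 13.1 FPKM in hrde-1 late, against 9.18 and 6.04 FPKM in morc-1 late, with a difference of 1.204 that missed the threshold (adjusted p = 0.358), although it was called higher early (2.90, adjusted p = 0.0351). R03D7.2 (0.82) and K02E2.6 (0.26) were not called. E01G4.5 had 11.7 and 7.40 FPKM in hrde-1 late, against 10.0 and 7.67 FPKM in morc-1 late, and with C36A4.11, at 0.962 and 1.34 FPKM in hrde-1 late against 2.67 and 2.04 FPKM in morc-1 late, it was below the filter.

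Of the 160 genes higher late, 9 pairs are neighbours in the RefSeq order of the mRNA rows matched to RefSeq, which involves 18 genes. RefSeq genes without a matched row were skipped, so another gene may lie between the members of a pair. The share of neighbouring pairs over all genes was not computed, so this count does not show clustering. R09H3.2, the gene beside R09H3.3 on chromosome X, had the largest positive difference of all calls. It had 749.5 and 999 FPKM in hrde-1 late, against 0 and 20.2 FPKM in morc-1 late (7.55, SE 1.22, limma adjusted p = 0.0228), and 591 and 1943 FPKM in hrde-1 early, against 10.5 and 17.5 FPKM in morc-1 early, where it was not called (adjusted p = 0.138). F15D4.6 beside F15D4.5 had 73.7 and 34.1 FPKM in hrde-1 late, against 3.77 and 2.48 FPKM in morc-1 late. Whether reads of neighbours were counted to both is not given in the sources used here, and without a stated strand setting reads of overlapping or antisense genes cannot be told apart. By chromosome 3.07% of tested genes on IV were higher late, 2.83% on V, 2.38% on II, 2.27% on X, 1.91% on I and 0.928% on III.

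Sperm genes made up 18 of the 128 genes called late only, and no sperm gene was called early. Major sperm proteins, the motility and signalling proteins of nematode sperm, had 23 genes tested, of which 5 rose, none fell and all 23 differences were above 0. Their median was 2.73 late and 0.12 early. Of 29 other spermatogenesis genes tested, 13 rose and none fell, with 26 above 0 and a median of 2.37 late and 0.11 early. Of the 52 genes together, 48 had both hrde-1 late libraries above both morc-1 late libraries, against 15.4% of all genes tested, and 18 were called higher, against 2.18%. Some members, such as msp-10 and ssp-11, were under 10 FPKM in every morc-1 library and passed the level filter only through hrde-1. The lists were also chosen with earlier results of these data known, so these shares are a description. Early, 2 of the 52 were higher at an unadjusted p under 0.05. None passed the test of a change from early to late (smallest limma adjusted p = 0.147, median change 2.57), with 40 higher and 1 lower at an unadjusted p under 0.05. Near-identical msp copies share reads, so single members are uncertain.

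The gene nspd-4, of a nematode-specific peptide family expressed in spermatogenesis, had 34.9 and 137 FPKM in hrde-1 late, against 2.08 and 2.74 FPKM in morc-1 late (4.38, SE 0.57, limma adjusted p = 0.0103). The gene msd-2, for a small protein with a major sperm protein domain, had 70.1 and 117 FPKM in hrde-1 late, against 10.9 and 8.24 FPKM in morc-1 late (3.13, SE 0.32, adjusted p = 0.00379). The gene msp-36 had 98.4 and 395 FPKM in hrde-1 late, against 17.8 and 31.5 FPKM in morc-1 late (3.00, SE 0.59, adjusted p = 0.0424). In all 3 genes hrde-1 late replicate 2 was the highest library and the groups did not overlap. Further called members were nspd-5 (3.62), msp-50 (3.11), nspd-1 (3.11), ssp-11 (3.05), msd-4 (2.96), msp-56 (2.73), msp-142 (2.61) and msp-81 (2.50).

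**Figure D4:**
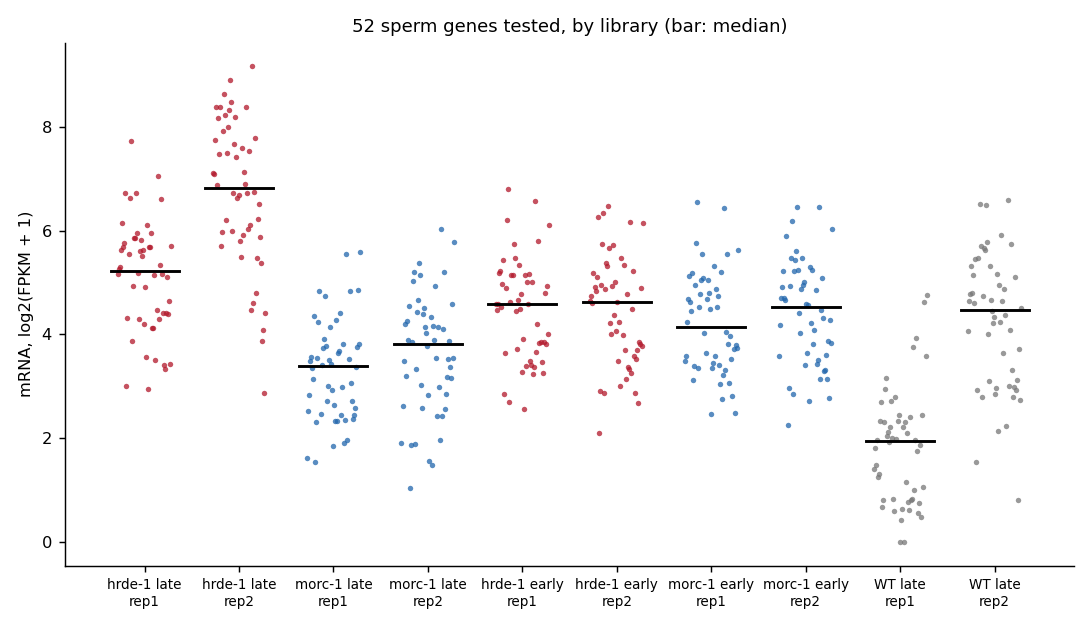
Each point is 1 of the 52 sperm genes tested, as log2(FPKM + 1), in each hrde-1 late, morc-1 late, hrde-1 early, morc-1 early and WT late library, with the black bar at the median. The hrde-1 late replicate 2 library stands highest and WT late replicate 1 lowest, with the early libraries of both mutants in between.

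The libraries of a group differed in these genes. Summed over the 52 genes, hrde-1 late had 2303 FPKM in replicate 1 and 8165 FPKM in replicate 2, against 599 and 813 FPKM in morc-1 late. The early sums were 1419 and 1420 FPKM in hrde-1 and 1184 and 1368 FPKM in morc-1. In WT late they were 205 and 1369 FPKM, so the ratio between libraries was wider in WT late than in hrde-1 late. Without hrde-1 late replicate 1, 43 of the 52 were called higher, and without replicate 2 there were 6. Without either morc-1 late replicate there were 2, with the filter and spread of the late libraries alone 4, and of all 12 libraries (7324 genes tested) 1. Median centring gave 10 and quantile normalization 12. Of the whole set of 128, 103 stayed called without hrde-1 late replicate 1, 27 without replicate 2, 13 without morc-1 late replicate 1, 7 without replicate 2 and 34 with all 12 libraries in the fit.

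Also higher late, and named after their values were seen, were fog-3, which drives germ cells to sperm fate, with 32.6 and 26.6 FPKM in hrde-1 late against 6.63 and 6.12 FPKM in morc-1 late, and the sperm-class genes ssp-34, ssp-35, sss-1, sss-2 and nspd-6. Markers of male soma and seminal fluid were below the filter for all 13 genes, with sums of 4.81 and 2.59 FPKM in hrde-1 late, against 3.03 and 3.18 FPKM in morc-1 late. Of 32 oocyte and eggshell genes tested, limma called none (2 higher and 3 lower at an unadjusted p under 0.05), with a median of -0.31. Meiotic chromosome genes (24 tested, median -0.37) and P granule genes (23 tested, median -0.12) likewise held no call, with 0 higher and 1 lower, and 1 higher and 3 lower, at an unadjusted p under 0.05. Late differences above 0 numbered 2 of the 32 oocyte and eggshell genes, 1 of the 24 meiotic and 8 of the 23 P granule genes. Early, the oocyte and eggshell median was 0.41, with 12 higher and 0 lower at an unadjusted limma p under 0.05 and no call. For the change from early to late, 0 of these genes were higher and 13 lower at that threshold. P granule genes had 5 higher early and 4 lower for the change, with 0 the other way. The part of gamete numbers or of developmental timing in the sperm gene difference was not tested.

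The 15 genes that fell included stress and metabolic genes. The inducible chaperone gene hsp-70 had 2.30 and 0.609 FPKM in hrde-1 late, against 50.0 and 44.8 FPKM in morc-1 late (-4.39, SE 0.59, limma adjusted p = 0.0113). The small heat shock gene hsp-16.2 had 12.2 and 1.79 FPKM in hrde-1 late, against 96.6 and 70.8 FPKM in morc-1 late (-3.79, SE 0.72, adjusted p = 0.0388). In WT late, hsp-70 had 32.4 and 33.3 FPKM, above hrde-1 late and below morc-1 late, and early it was under 1 FPKM in all 4 mutant libraries. Of 10 heat shock genes tested these 2 fell and none rose (median -0.58), while 0.204% of all genes tested fell. The paralogue hsp-16.41 had 13.3 and 1.26 FPKM in hrde-1 late, against 106 and 44.7 FPKM in morc-1 late, and missed the threshold (adjusted p = 0.0927).

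The alcohol dehydrogenase gene sodh-1 had 53.8 and 39.5 FPKM in hrde-1 late, against 299 and 429 FPKM in morc-1 late (-2.93, SE 0.36, limma adjusted p = 0.00861). The acyl-CoA synthetase gene acs-2, which acts in fatty acid oxidation, had 23.2 and 15.4 FPKM in hrde-1 late, against 72.8 and 62.1 FPKM in morc-1 late (-1.78, SE 0.33, adjusted p = 0.0353). The aquaporin gene aqp-1 fell by 1.54 and the C-type lectin gene clec-266 by 1.77. The body shape gene dpy-14 had 6.05 and 11.4 FPKM in hrde-1 late, against 83.2 and 144 FPKM in morc-1 late (-3.56). T05H10.3 (-3.24), C02E7.6 (-2.91), F41F3.3 (-2.21), R10E4.1 (-2.21) and F07H5.3a (-1.40) completed the calls with vit-5, C03C10.9 and hrde-1 itself. For all 15 genes both hrde-1 late libraries lay below both WT late libraries, while morc-1 late overlapped WT late for 8, lay below it for 5 and above it for 2. Over all genes tested the shares were 10.6% for hrde-1 late below WT late, and for morc-1 late 50.5% overlapping, 13.5% below and 35.9% above. As the calls chose genes with low hrde-1 late libraries, these positions are a description. Without hrde-1 late replicate 2, 4 of the 15 stayed called, and without morc-1 late replicate 2, 1 did.

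The yolk protein gene vit-5 and C03C10.9 had listed values of 0 in each hrde-1 late library. In morc-1 late vit-5 had 4663 and 3276 FPKM, and C03C10.9 had 30.9 and 59.6 FPKM. A listed 0 can be a failed estimate, since the yolk genes vit-2 and vit-6, abundant in adults, were listed at 0 in all 4 late mutant libraries. The yolk genes vit-1, vit-3 and vit-4 had differences above 0 and no call. The gene vit-1 had 1392 and 2439 FPKM in hrde-1 late, against 962 and 755 FPKM in morc-1 late (1.11, limma adjusted p = 0.233). The F-box family member fbxa-33, annotated as a pseudogene, was the converse. It had 131 and 129 FPKM in hrde-1 late and was listed at 0 in both morc-1 late libraries and in every early mutant and WT late library.

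The mutated genes were measured in each library. The gene hrde-1, listed as wago-9, had 81.1 and 68.5 FPKM in hrde-1 late, against 174 and 175 FPKM in morc-1 late (-1.22, SE 0.23, limma adjusted p = 0.0388). Early it had 151 and 134 FPKM in hrde-1, against 125 and 161 FPKM in morc-1, and was not called. The gene morc-1 had 36.8 and 22.4 FPKM in hrde-1 late, against 11.9989 and 9.77 FPKM in morc-1 late, a difference of 1.33 that missed the threshold (adjusted p = 0.0922), and 1.76 early (adjusted p = 0.0876). Gene totals do not show the deleted part.

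Other groups of genes gave few or no calls. Of 15 Argonaute genes, hrde-1 alone was called, with 0 higher and 3 lower at an unadjusted p under 0.05, and 4 had differences above 0. None of 26 genes for small RNA amplification (median -0.35), 14 for H3K9 methylation and heterochromatin (median -0.31) or 16 for H3K36, H3K27 and H3K4 methylation (median -0.36) was called by limma, with 1 gene in all, lower and of the first list, at an unadjusted p under 0.05. Differences above 0 numbered 2, 2 and 1 in these lists, where the median of all genes tested was -0.18. Of 38 C-type lectin genes, 3 rose and 1 fell, against 2.18% and 0.204% of all genes tested. Of these lectin genes 21 had differences above 0 (median 0.02). The gene clec-86 had 41.1 and 37.1 FPKM in hrde-1 late against 8.85 and 12.04 FPKM in morc-1 late (1.82). The genes clec-41 and clec-186 differed by 1.48 and 1.29. Of 20 intestine genes 2 rose, both lysozyme genes of innate defence, and 12 of the 20 had differences above 0 (median 0.08). The lysozyme gene lys-7 had 991 and 983 FPKM in hrde-1 late, against 251 and 373 FPKM in morc-1 late (1.69, SE 0.33, limma adjusted p = 0.0424), and lys-1 differed by 1.30. T24B8.5, a gene induced by intestinal infection that was named after its values were seen, had 965 and 664 FPKM in hrde-1 late, against 94.8 and 83.7 FPKM in morc-1 late. Of 26 F-box genes only the annotated pseudogene fbxa-33 and fbxb-14 were called, and 14 of the 26 had differences above 0 (median 0.06).

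**Figure D5:**
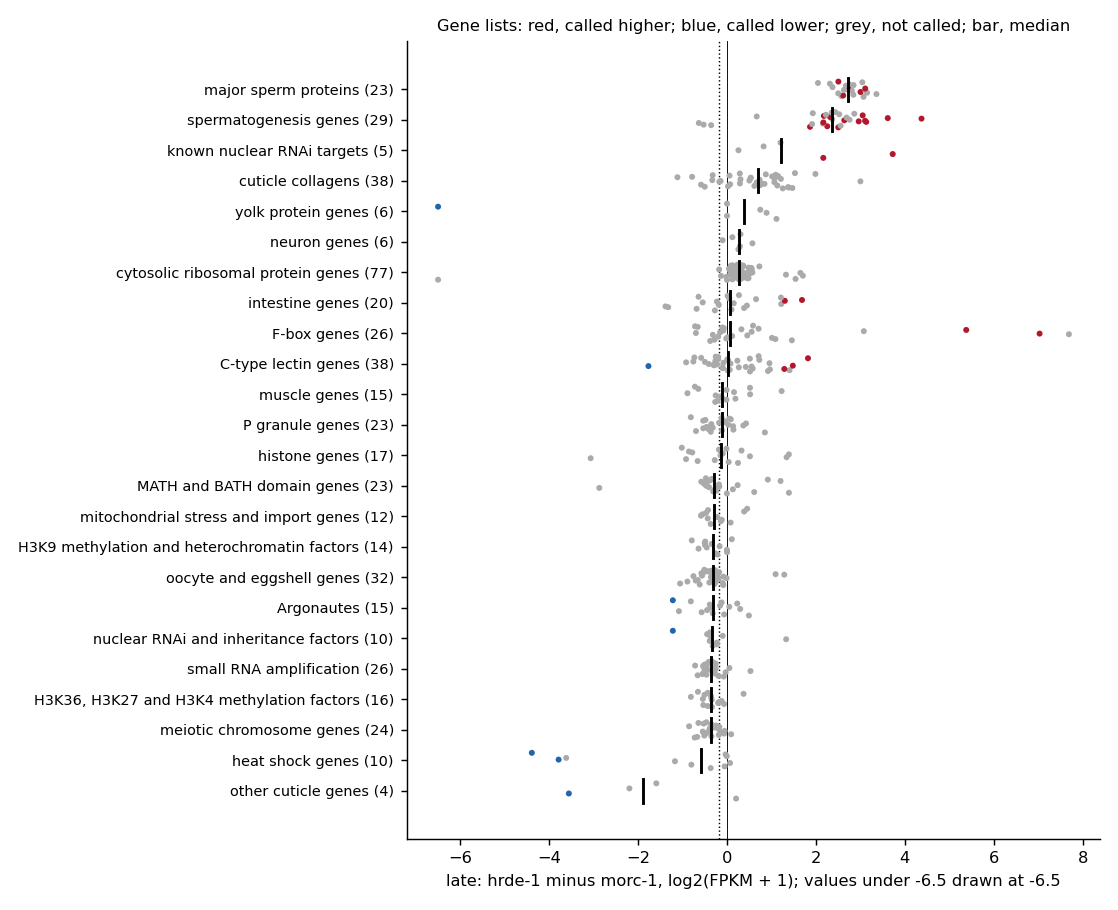
Late differences (hrde-1 minus morc-1, log2(FPKM + 1)) of the tested members of each gene list, 1 point a gene, with the number tested in brackets, calls in colour and the list median as a black bar. The dotted line is the median of all genes, -0.18; the 2 sperm lists stand farthest right, with medians of 2.73 and 2.37.

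Cuticle collagens and ribosomal protein genes held no call by limma (5 in all higher and 1 lower at an unadjusted p under 0.05), and their values varied between libraries of a group. All 38 collagen genes tested were higher in replicate 2 than in replicate 1 in both strains, by a median fold in FPKM + 1 of 15.5 in hrde-1 late and 3.49 in morc-1 late. The same held for all 38 in hrde-1 early (4.44), morc-1 early (3.64) and WT early (3.53), and for 36 in WT late (4.89). The difference thus followed the replicate number in every mRNA group. Summed over all 160 collagen genes, hrde-1 late had 5964 and 97869 FPKM, against 6535 and 23815 FPKM in morc-1 late, so the strains overlapped despite a list median of 0.70. Ribosomal protein genes had a median of 0.26 over 77 genes, which was -0.06 after quantile normalization. Summed, they had 228989 and 501710 FPKM in hrde-1 late, against 242605 and 268095 FPKM in morc-1 late. The sperm, collagen and ribosomal sums were each highest in hrde-1 late replicate 2, the library set apart by its FPKM total. Without that library the list medians were 1.77 for major sperm proteins, 1.66 for the other spermatogenesis genes, -1.33 for collagens and -0.27 for ribosomal protein genes, beside 0.10 over all genes. Without morc-1 late replicate 1 the collagen median was -0.29.

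Early, 2 genes fell in hrde-1 relative to morc-1 (0.0272% of genes tested), and both were listed at 0 in hrde-1 early. They were nola-3, coding for a small nucleolar ribonucleoprotein subunit, with 41.7 and 20.3 FPKM in morc-1 early, and JC8.11, with 21.5 and 112 FPKM. Late, nola-3 had 23.05 and 43.3 FPKM in hrde-1, against 54.8 and 58.9 FPKM in morc-1, and was not called.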

How the data were processed

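The mRNA values were deposited by the authors under the name of normalized counts. They are fractional and were treated as FPKM made by the authors with Trimmomatic 0.35 and TopHat2, per the submitters' processing notes, and no source at hand gives the build, the annotation or the strand setting. The small RNA values deposited by the authors are a normalized signal: each library's reads were scaled by a constant (DESeq2, per the submitters' processing notes). Dividing by that constant gave whole reads for 100% of values within 0.02, with 1234568 to 2265007 reads in the 5 late mutant libraries and 54599 in the shallowest, morc-1 early replicate 1. The headers of 2 morc-1 late small RNA columns are identical, so their replicate numbers are unknown.

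Of 21976 mRNA rows, 21954 had an identifier and 19434 matched the gene table. Chromosomes, annotation and gene order came from the RefSeq genes of assembly WBcel235. Genes with a mean of at least 10 FPKM over the 8 mutant libraries (7356) entered a limma (3.58.1) fit of log2(FPKM + 1) under R 4.3.3, with group means, a variance trend and Benjamini-Hochberg adjusted p under 0.05. Contrasts were hrde-1 minus morc-1 late, the same early, and the change between them. Small RNA (2261 features) was fitted likewise, with edgeR 4.0.16 and DESeq2 1.42.0 on recovered reads as alternatives. Of the genes tested, 78 held a 0 in some mutant library and 53 had a mutant group at 0. The fit was tested on simulated data.

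Genes named were the mutated genes, the 15 largest calls each way late whose libraries did not overlap, up to 6 called members per list, all tested known targets, and the 4 largest calls each way for the early contrast and the change. Members and lists were chosen with earlier results of these data known.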

Additional observations from a re-analysis of the deposited data

Results flagged for a closer look

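The difference between hrde-1 and morc-1 changed from early to late for vit-5, a yolk protein gene, by a test of the change itself (limma adjusted p = 2.79e-05). Late it was listed at 0 in both hrde-1 libraries, against 4663 and 3276 FPKM in morc-1. Early it had 3224 and 2661 FPKM in hrde-1, against 2898 and 1667 FPKM in morc-1. The fitted change of -12.35 on the log2(FPKM + 1) scale rests on those values of 0 and on the pseudocount of 1, and is no measure of size. No other gene passed this test, at 284 higher and 147 lower genes with an unadjusted p under 0.05.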

How the results depend on the processing

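The late calls, 160 higher and 15 lower, stayed within 1.5 times under pseudocounts of 0.1 and 5 and median centring. Late they were 540 and 73 with a mean of at least 1 FPKM (12508 genes tested), 519 and 148 with no filter, 59 and 9 with only the 4 late libraries (7265 genes tested), and 61 higher with 79.2% of calls higher, against 91.4%, with all 12 libraries in the fit (7324 genes tested). Quantile normalization gave 26 lower. Leaving out 1 library gave 31 to 238 higher and 3 to 100 lower. Early, the 34 higher and 2 lower calls became 55 and 5 with a mean of at least 1 FPKM, 18 and 0 with the early libraries alone, 7 lower with no filter, 4 lower with quantile normalization, 1 lower with a pseudocount of 5 and 0 lower without genes listed at 0 (a setting chosen after seeing the data); leaving out 1 library gave 18 (without hrde-1 early replicate 2) to 29 and 2 to 5. The change, 0 higher and 1 lower, became 1 and 2 with pseudocounts of 0.1 and of 5, 2 and 2 with a mean of at least 1 FPKM, 7 and 6 with no filter, 0 lower without genes listed at 0, and 0 to 37 and 1 to 2 when 1 library was left out, where the 37 came without hrde-1 late replicate 1. Small RNA calls, 386 higher and 936 lower, became 604 and 437 with quantile normalization, 595 and 726 with edgeR, and 607 and 587 with DESeq2. The cause of these shifts was not tested, beyond the genes and libraries each setting removes. Centring moved the median of all genes to -0.06, against -0.18, and the sperm gene calls to 10, against 18.

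Replicate numbers do not pair libraries by the labels. Deviations of same-numbered late libraries correlated at 0.42 and of early ones at 0.56, and across stages at -0.23 to -0.01. With the replicate number as a block, 127 genes were higher and 11 lower late. With a block within each generation there were 371 higher and 57 lower late, 50 higher and 7 lower early, and 38 higher and 4 lower for the change. Among single named genes, 171 values lost the threshold in some setting, 3 passed it newly, and none reversed.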
